A study of Mus musculus with 2 samples.

Results

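The 9 mouse genes that encode the AMPA receptor subunits (Gria1 to Gria4) and the kainate receptor subunits (Grik1 to Grik5) were examined for binding of CTCF in newborn forebrain. They were taken by name from 21938 protein-coding genes, and every CTCF summit within 1 kb of a transcription start site (TSS), inside the gene or within 100 kb of either end was counted as a site of that gene. This gave 93 sites out of 56470 in the whole list of bound sites. Binding was measured by chromatin immunoprecipitation followed by sequencing (ChIP-seq), with an antibody to CTCF, in a single group: forebrain of B6NCrl mice on postnatal day 0, with tissue of several dissections pulverized and pooled. The group had 2 libraries, called replicate 1 and replicate 2, there was no second condition, and sex was not collected. Both libraries cite the same biosample and donor, so their spread may be technical. Forebrain tissue mixes neurons, glia, vessel cells and blood cells, and a peak does not say which of them carried it. The bound sites are those of the optimal list, which the authors set by the irreproducible discovery rate (IDR). Strength is the signal value that the authors' peak caller gave each peak, on a scale not stated. The optimal list carries the values of the peaks called on both libraries together, which are not on the scale of the values called in each replicate.

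AMPA and kainate receptors are cation channels opened by glutamate, each built from 4 subunits. AMPA receptors carry most fast excitatory transmission in the forebrain, and their subunits are swapped as synapses mature. Kainate receptors act on both sides of the synapse: Grik1, Grik2 and Grik3 encode subunits that form channels by themselves, whereas the products of Grik4 and Grik5 need such a partner. CTCF is a zinc-finger protein that halts loop-extruding cohesin at its binding site, and the strand of its motif sets the side on which cohesin stops.

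The strongest site with a motif match at each gene is shown first, to compare the bound sequence between the genes. Each line gives the match in capitals with 10 bases on each side, read 5′ to 3′ on the strand of the motif, from the GRCm38 (mm10) genome sequence.
Gria1, intron 14, chr11:57310956-57310989, minus strand: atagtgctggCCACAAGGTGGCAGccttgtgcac
Gria2, upstream, chr3:80805526-80805559, minus strand: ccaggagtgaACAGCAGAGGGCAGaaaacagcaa
Gria3, intron 11, chrX:41615152-41615185, minus strand: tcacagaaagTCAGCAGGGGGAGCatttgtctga
Gria4, intron 5, chr9:4536925-4536958, plus strand: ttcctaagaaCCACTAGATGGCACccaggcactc
Grik1, downstream, chr16:87841100-87841133, plus strand: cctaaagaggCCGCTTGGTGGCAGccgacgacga
Grik2, intron 1, chr10:49786888-49786921, minus strand: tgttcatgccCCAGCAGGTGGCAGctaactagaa
Grik3, intron 13, chr4:125703532-125703565, minus strand: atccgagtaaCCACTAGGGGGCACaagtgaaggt
Grik4, intron 15, chr9:42550352-42550385, plus strand: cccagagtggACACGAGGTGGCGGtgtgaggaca
Grik5, upstream, chr7:25105993-25106026, plus strand: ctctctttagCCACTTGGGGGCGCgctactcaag
The matches of Gria4, Grik2 and Grik3 fit the CTCF core consensus of 14 bases without a mismatch. Those of Gria1, Gria2 and Grik5 have 1 mismatch, and those of Gria3, Grik1 and Grik4 have 2. The signal values of these sites did not follow that order: the site in Grik4, with 2 mismatches, was at 431, whereas the exact match in Grik2 was at 53.3. Each was picked as the strongest of its gene, so they cannot show how the match relates to strength. Over all member sites the median signal value was 155 at 0 mismatches (5 sites), 96.4 at 1 and 41.2 at 2. In the whole optimal list it was 207, 110 and 60.5.

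At the promoters, a summit lay within 1 kb of a TSS in 6 of the 9 genes: Gria1, Gria3, Gria4, Grik1, Grik2 and Grik4. The same held for 36.8% of all protein-coding genes and for 52.7% of the 3945 protein-coding genes between the shortest and the longest member in length (62.5 to 694 kb). Most of these promoter peaks were weak beside the whole list of sites. They were not compared with promoter peaks of other genes. Of the 9 promoter sites, 2 were above 64.3, the median signal value of all optimal-list sites: that of Grik2 and the strongest of the 4 at Grik4. The median of the 9 was 40.2. The promoter sites lay between 36 and 540 bp from a TSS, and the nearest summit left out by the window was a site of Grik4 at 1279 bp, with a signal value of 98.8.

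Among the AMPA genes, the Gria1 promoter had the strongest peak. Gria1 encodes a subunit that is inserted into synapses during long-term potentiation. Its promoter site lay 540 bp upstream of the nearest TSS and had a signal value of 53.3, with 30.1 in replicate 1 and 22.2 in replicate 2. The Gria4 site had a signal value of 38.2, with 15.1 in replicate 1 and 20.6 in replicate 2, 147 bp upstream of a TSS that lies inside the gene. Gria4 encodes a subunit that is prominent in the young brain and in interneurons. The Gria3 site, 305 bp upstream, was the weakest of the 9 at 22.4, with 9.83 in replicate 1 and 10.9 in replicate 2. Gria2, whose RNA-edited product keeps AMPA channels closed to calcium, had no optimal-list summit at its TSS. A weak peak 69 bp upstream of it was in the conservative list but not in the optimal list, with a signal value of 19.2, and with 9.70 in replicate 1 and 8.10 in replicate 2. Those values were close to the 9.83 and 10.9 of the Gria3 promoter, which was in both lists.

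Among the kainate genes, Grik4 stood far above the rest. Its promoter held 4 sites at 2 TSSs. The strongest, 437 bp upstream, had a signal value of 343, with 166 in replicate 1 and 176 in replicate 2, and was stronger than 95.8% of all sites. Further sites lay 36 bp upstream of the same TSS (51.8), 496 bp downstream of it (34.1) and 102 bp downstream of the second TSS, in exon 3 (40.2). The 34.1 site was unequal between the libraries, with 24.5 in replicate 1 and 8.49 in replicate 2, and was not in the conservative list. The Grik2 site, 46 bp upstream, had a signal value of 119, with 65.2 in replicate 1 and 53.5 in replicate 2. It also lay 15 bp from the TSS of an unclassified transcript, Gm48123, so it cannot be assigned to Grik2 alone. The Grik1 site, 152 bp downstream of a TSS in intron 1, was at 29.7, with 14.3 in replicate 1 and 14.8 in replicate 2.

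Grik3 and Grik5 had no promoter summit, and even the full peak lists showed almost nothing there. The best peak near the Grik3 TSS had a value of 3.87 in replicate 1 and 4.38 in replicate 2, with q-values of 0.317 and 0.0815. At Grik5 a single peak of 3.47 was called in replicate 1 (q-value 0.405) and none in replicate 2. These values are below the median of all called peaks, 4.78 in replicate 1 and 4.18 in replicate 2, except for the 4.38. The nearest sites of the 3 genes without a promoter summit were 1627 bp downstream of the TSS for Gria2, 2635 bp downstream for Grik3 and 4629 bp upstream for Grik5. That site of Grik5, at 17.4, had no called peak in replicate 1 and lay 284 bp from the TSS of another gene, Zfp574. GC content within 500 bp of a TSS, taken at the TSS of each gene with the highest value, was 74.1% at Grik3 and 71.0% at Grik4. Grik3 has no promoter summit and Grik4 has the strongest. A role of base composition was not tested.

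**Figure D1:**
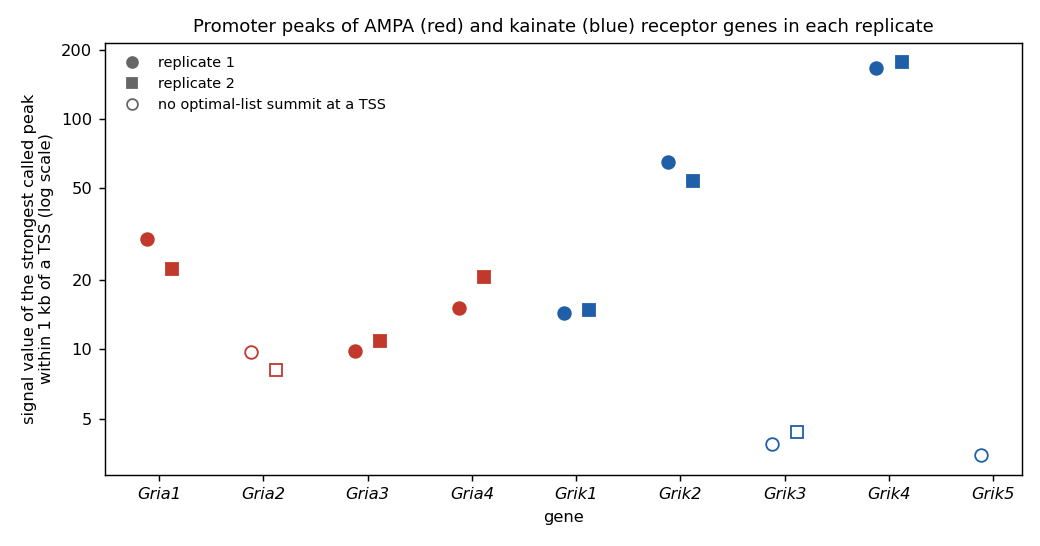
Signal value (log scale) of the strongest peak called within 1 kb of a TSS in replicate 1 (circles) and replicate 2 (squares) for each AMPA (red) and kainate (blue) receptor gene. Open symbols mark genes with no optimal-list summit there: Gria2 sits just under Gria3, Grik3 and Grik5 lie lowest, and Grik4 (166 and 176) lies above all others in both replicates.

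The Grik4 and Gria1 promoter sites are printed to compare a strong promoter peak with a weak one, each with 100 bases on either side of the summit and the motif match in capitals. Both windows lie upstream of the gene.
Grik4, signal value 343, chr9:42944830-42945030, minus strand: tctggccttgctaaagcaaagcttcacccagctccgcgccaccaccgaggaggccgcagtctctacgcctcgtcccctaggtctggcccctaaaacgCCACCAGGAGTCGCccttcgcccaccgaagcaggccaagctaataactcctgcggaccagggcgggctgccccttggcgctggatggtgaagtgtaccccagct
Gria1, signal value 53.3, chr11:57011170-57011370, plus strand: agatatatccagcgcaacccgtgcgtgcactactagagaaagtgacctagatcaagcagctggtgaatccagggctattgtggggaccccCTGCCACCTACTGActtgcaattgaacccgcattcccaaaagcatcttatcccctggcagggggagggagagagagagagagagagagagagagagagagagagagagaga
The match at Grik4 has 2 mismatches and lies on the strand of the gene. The match at Gria1 has 1 mismatch and lies on the opposite strand, so it appears here as its reverse complement. The Grik4 window is 64.2% GC and the Gria1 window 53.2%. Of the 9 promoter sites, 4 had a motif match, a share of 44.4%, against 66.6% of all optimal-list sites. Grik4 alone holds 4 of the 9, and the share at promoter sites of other genes is not given here. The strongest promoter site without a match was that of Grik2 (119), whose best alignment had 3 mismatches.

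All 9 genes had at least 1 summit in the gene body, 52 in all. This is a common state: 53.0% of all protein-coding genes and 89.9% of those in the members' range of length had at least 1. The density of summits ranged from 0.360 per 100 kb in Gria3 to 8 per 100 kb in Grik5. Over all members it was 1.79 per 100 kb, against 2.57 for the protein-coding genes of that range of length pooled. The 9 members span 2897 kb together and the 3945 genes of the range 621672 kb. The 2 sets were thus not matched in length within the range, and a part of length in the difference was not tested. The kainate genes had 2.17 summits per 100 kb and the AMPA genes 1.19. Without Grik4 the kainate genes had 1.60, and without Grik5 they had 1.96.

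**Figure D2:**
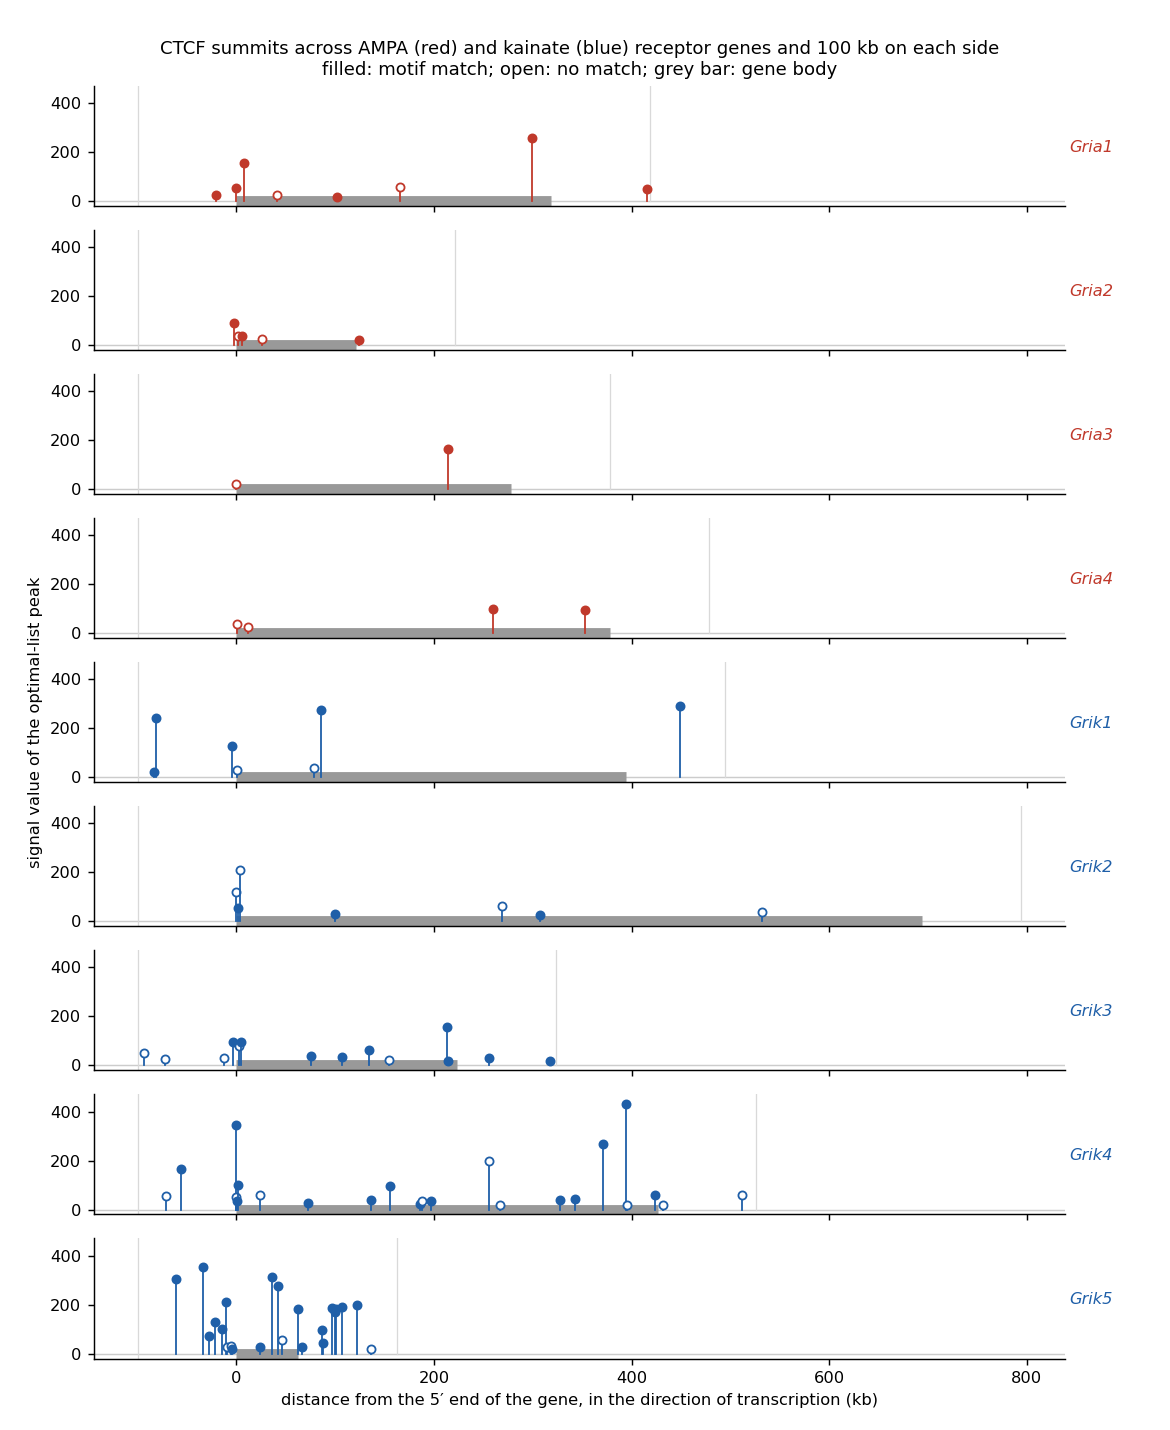
Optimal-list summits along each gene (grey bar) and 100 kb on both sides (grey lines mark the ends of the flanks), with distance from the 5′ end in kb and the signal value as height. Filled points have a motif match. Gria3 has 2 sites and Gria4 has 4, Grik4 carries 17 summits along its body, and the summits of Grik5 crowd on both sides of a short gene.

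Gria1 (chromosome 11, 57011387 to 57330244, plus strand) had 5 summits in its body, a density of 1.57 per 100 kb. The strongest lay in intron 14, with a signal value of 256 (155 in replicate 1 and 101 in replicate 2). Intron 2 held the other 4, the first of which had a signal value of 155, with 76.2 in replicate 1 and 77.7 in replicate 2. The other 3 were at 55.7, 25.8 and 17.4. Gria1 thus had a strong site near each end and weak ones between.

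The intron 14 site of Gria1 lay beside the flip and flop exons. AMPA receptor genes carry this pair of mutually exclusive exons, each of 115 bases, which set how fast the channel desensitizes. In Gria1 they are at 57309769 to 57309883 and 57310608 to 57310722, and the summit at 57310970 lay 248 bp after the second exon. No other AMPA gene had this arrangement. The nearest summit to the pair was 10.2 kb away in Gria4 (signal value 95.0), 11.4 kb away in Gria2 (22.5, beyond the 3′ end of the gene) and 39.6 kb away in Gria3 (164). This feature was looked at after the position of the Gria1 site had been seen.

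Gria2 (chromosome 3, 80681450 to 80802835, minus strand) had 3 body summits, all in intron 2. Its density of 2.47 per 100 kb was close to 2.45, the median of genes in the range of length. All 3 were weak, at 38.0, 37.9 and 24.7. The second of them differed between the libraries, with 13.5 in replicate 1 and 24.6 in replicate 2. The strongest site of Gria2 was outside the gene, 2713 bp upstream of the TSS, at 91.0 (53.7 in replicate 1 and 36.2 in replicate 2).

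Gria3 (chromosome X, 41400854 to 41678601, plus strand) had a single body summit in 278 kb. It lay in intron 11 at 164, with 95.4 in replicate 1 and 67.4 in replicate 2. A lower density held for the X chromosome in general. The 164 X-linked genes of this range of length had 1.18 summits per 100 kb together, and 74.4% of them had at least 1. Gria3, at 0.360 per 100 kb, was below that density, and a role of the chromosome was not tested.

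Gria4 (chromosome 9, 4417896 to 4796234, minus strand) had 4 body summits and was the only member with none in its flanks. Its 2 stronger sites were in intron 5 (97.2, with 50.4 in replicate 1 and 47.3 in replicate 2) and intron 14 (95.0, with 52.7 in replicate 1 and 41.3 in replicate 2). The intron 5 site is the exact motif match printed above. The other 2 were the promoter site in intron 1 and a site of 24.9 in intron 3. All 13 body summits of the AMPA genes were in introns, a count given without the share over other genes.

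Grik1 (chromosome 16, 87895900 to 88290265, minus strand) had 3 body summits, all in intron 1, and none over the rest of the gene. The strongest was at 274, with 148 in replicate 1 and 130 in replicate 2. A weaker neighbour at 36.6 was unequal between the libraries, with 25 in replicate 1 and 9.98 in replicate 2. Grik2 (chromosome 10, 49094833 to 49788766, minus strand), the longest member, had 6 body summits in 694 kb. The strongest, at 210 (109 in replicate 1 and 103 in replicate 2), lay in intron 1 and had no motif match. The other 5 were between 26.5 and 61.2.

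Grik3 (chromosome 4, 125490700 to 125714173, plus strand) had 8 body summits, a density of 3.58 per 100 kb. A pair in intron 1 near the 5′ end had signal values of 77.8 and 96.4. Towards the 3′ end, intron 13 held the strongest site of the gene at 155, with 81.0 in replicate 1 and 73.8 in replicate 2. A weak site in exon 15, at 19.8 (9.52 in replicate 1 and 9.21 in replicate 2), was the only member site in coding sequence.

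Grik4 (chromosome 9, 42518135 to 42944493, minus strand) had 17 body summits, the most of any member. Its strongest site, and the strongest of all 93, was in intron 15 (chromosome 9, 42550236 to 42550511), 41 bp from an exon. It had a signal value of 431, with 251 in replicate 1 and 181 in replicate 2, and ranked 452 in the optimal list. Intron 13 held a site of 266 with an exact motif match, and intron 3 a site of 198 without a match. Most of the remaining sites were weak: 10 of the 17 had values between 17.1 and 42.4. A site in exon 21, in the 3′ untranslated region, was at 60.1.

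Grik5 (chromosome 7, 25009849 to 25072346, minus strand), the shortest member, had 5 body summits. Its density of 8 per 100 kb exceeded that of 96.1% of the genes in the range of length. The range is bounded by Grik5 itself, and short genes reach high densities with few summits. Both strong intronic sites were in intron 12, at 311 (166 in replicate 1 and 146 in replicate 2) and 277 (135 in replicate 1 and 141 in replicate 2). Another strong site lay in exon 20, in the 3′ untranslated region, at 183 (91.1 in replicate 1 and 88.8 in replicate 2).

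**Figure D3:**
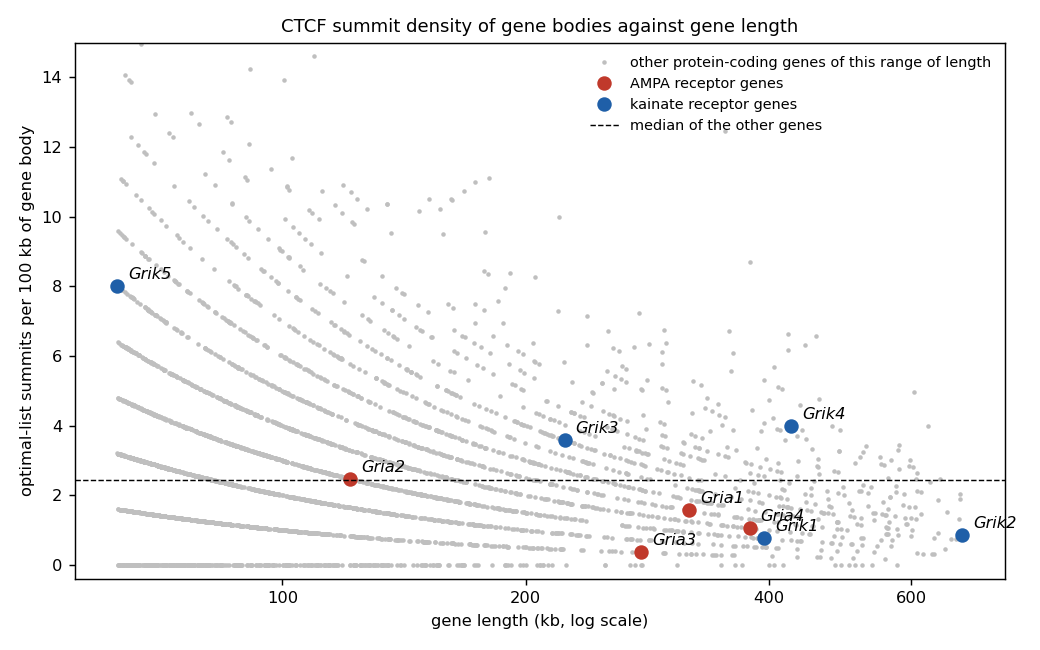
Summits per 100 kb of gene body against gene length (kb, log scale) for the AMPA (red) and kainate (blue) receptor genes and the other protein-coding genes of this range of length (grey), 3 of which lie above the axis. The dashed line is the median of the other genes; Grik3, Grik4 and Grik5 lie above it, Gria2 lies on it, and Gria1, Gria3, Gria4, Grik1 and Grik2 lie below it.

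Along the body, 13 of the 52 summits (25%) lay in the first 10% of the gene and 8 (15.4%) in the last 10%. In all genes of the range of length the shares were 17.8% and 11.7%. Introns held 48 of the 52 and exons 4. The share in introns over other genes is not given here, so these counts cannot be called high or low.

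In the flanks, 8 of the 9 genes had a summit within 100 kb, a state shared by 96.1% of genes of the range of length. There were 41 flank summits, of which 18 belonged to Grik5, so that 23 remained without it. The median member had 3 flank summits, against 6 for the genes of the range of length. Flanks of the AMPA genes were sparse, with 3 summits at Gria1, 2 at Gria2, 1 at Gria3 and 0 at Gria4.

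The flanks of Grik5 lie among other genes. Sites there were within 1 kb of the TSS of Pou2f2 (306, with 180 in replicate 1 and 126 in replicate 2), Zfp574 (29.0 and 17.4) and Rabac1 (170). Pou2f2 encodes a POU transcription factor. The strongest flank site of all members, at 354 (197 in replicate 1 and 159 in replicate 2), was in the body of Pou2f2, 33687 bp upstream of the Grik5 TSS. The 17.4 site by Zfp574 had a called peak in replicate 2 alone, at 10. Such sites cannot be assigned to Grik5 rather than to a neighbour.

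Grik1 had strong flank sites more than 100 kb from the TSS of any other coding gene. They were at 292 downstream (159 in replicate 1 and 134 in replicate 2), 54781 bp past the 3′ end, and at 242 upstream (134 in replicate 1 and 108 in replicate 2), 81962 bp before the TSS. Another, 4140 bp before the TSS, was at 128. The 242 site lay inside another annotated gene and 4389 bp from the TSS of a noncoding RNA gene, so it cannot be assigned to Grik1 alone. Grik4 had a site of 167 at 55788 bp upstream, inside Arhgef12. The flanks of Grik3 held 6 summits between 20 and 97.6, the strongest 3938 bp upstream of the TSS. The nearest summits left out by the limit of 100 kb were 102 kb from Gria1 (34.5) and from Grik5 (28.8), and 103 kb from Grik1 (39.9).

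The CTCF motif was searched on both strands within 50 bp of each summit, with at most 2 mismatches allowed. A match was found at 62 of the 93 sites (66.7%), against 66.6% of all optimal-list sites. In windows moved by 1 kb from all summits the share was 2.91% upstream and 2.97% downstream. Member sites with a match had a median signal value of 94.9 and those without 36.6. Over the whole list the medians were 93.0 and 38.3. The share and both medians at these genes were close to those of the whole list. The share was 63.2% at AMPA sites and 67.6% at kainate sites.

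**Figure D4:**
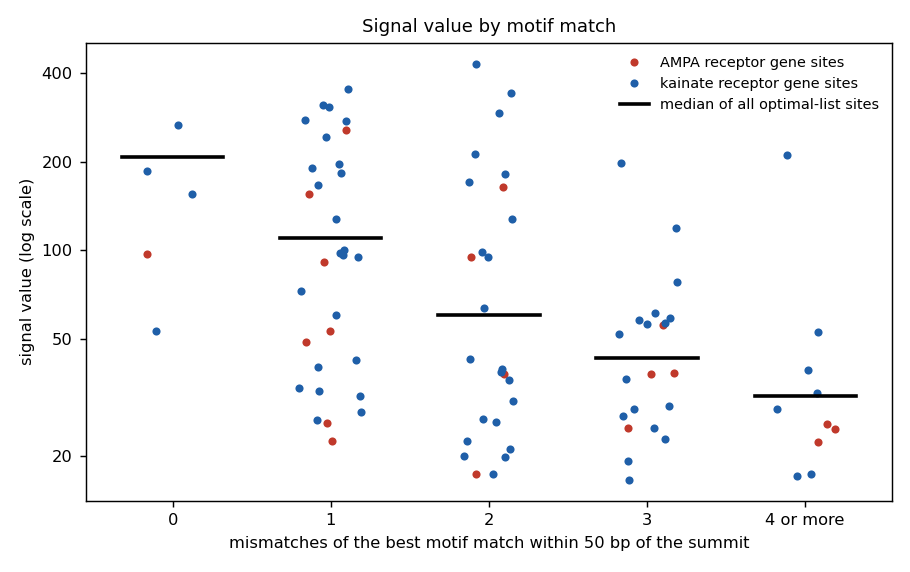
Signal value (log scale) of each member site by the number of mismatches of its best motif match, AMPA genes in red and kainate genes in blue, with the median of all optimal-list sites as a black bar. Member sites spread widely at each number of mismatches, and their median was 96.4 at 1 mismatch and 41.2 at 2, against 110 and 60.5 in the whole list.

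Motif strand within the genes was even: of 33 body summits with a match, 17 were on the strand of the gene and 16 on the opposite strand. The nearest motif-bearing sites on the 2 sides of each gene pointed towards each other at 4 genes, Gria3, Grik2, Grik3 and Grik4. They pointed the same way at Gria2, Gria4 and Grik1, and away from each other at Gria1 and Grik5. At Gria3 and Grik2 the farther of these sites was 2591372 bp and 1808933 bp from the gene. Among 3925 genes of the range of length with such sites, 33.8% had the convergent, 46.4% the same-way and 19.7% the divergent arrangement. At Grik4 the convergent pair was the promoter site of 343 and a site of 131 that lay 129476 bp past the 3′ end. Each such pair encloses its gene by definition, and 12 body summits of Grik4 with a match lay between the sites of this pair. Peak lists hold no contacts, and no loop was measured.

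The libraries gave similar values at the member sites. Replicate 1 had a called peak at 92 of the 93 sites and replicate 2 at 93. Nearly all sites of the optimal list had one, 56373 of 56462 in replicate 1 and 56323 in replicate 2. That list was set by IDR, so these counts are no trait of the member sites. Replicate 1 had a median of 28.2 and replicate 2 a median of 24.6, against 34.9 and 30.2 over the whole list. After centring on the median ratio of all sites, the log2 ratio of replicate 1 to replicate 2 had an SD of 0.45 at member sites and 0.50 at all sites. The largest difference was at a weak site in intron 15 of Grik4, with 16.4 in replicate 1 and 4.87 in replicate 2. No summit of replicate 2 lay within 100 bp of it, and the strong 431 site lies in the same intron.

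**Figure D5:**
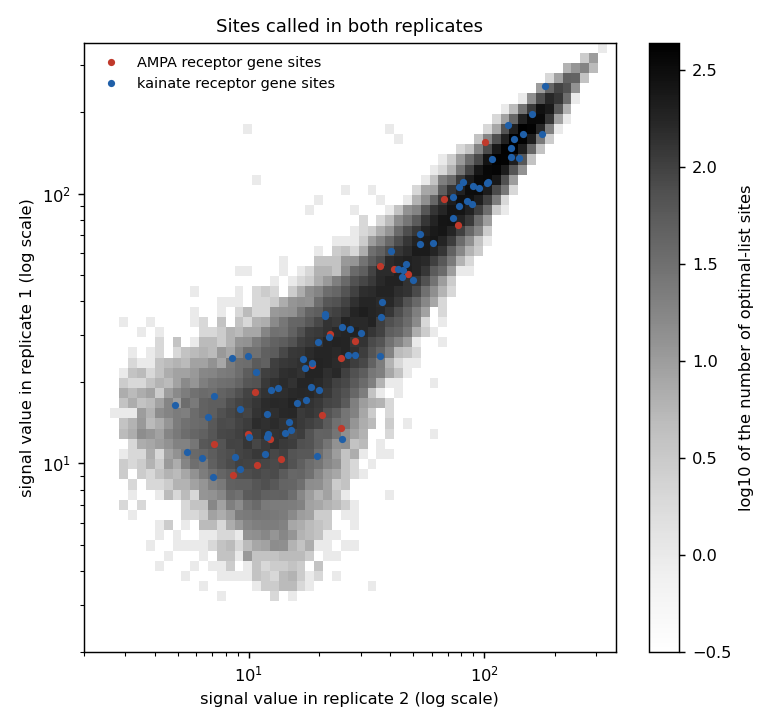
Signal value in replicate 1 against replicate 2 (both log scales) at member sites of AMPA genes (red) and kainate genes (blue), over the number of all optimal-list sites (grey, log10 scale). Member sites follow the cloud of all sites, and strong sites lie in its narrow part.

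By strength, 38 of the 93 member sites reached the list median. The median member site was at 53.3, against 64.3 for all sites, and the body sites of members were at 41.3, against 56.2 for body sites of genes of the range of length. AMPA sites had a median of 38.2 and kainate sites 57.4. In the gene bodies alone the medians were closer, at 38.2 and 42.4. The kainate median over all sites was 51.8 without Grik5 and 63.7 without Grik4. With 1 group and 2 libraries, no test of these differences was made.

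Genes that work with these receptors or encode related receptors were counted in the same way, from a list of 37. The list includes 2 delta receptor genes and the 7 NMDA receptor subunit genes described below. In all, 21 had a promoter summit, a share of 56.8%, against 36.8% of all protein-coding genes. Without the NMDA receptor subunit genes it was 17 of 30 (56.7%). The list holds many genes shorter than the members. Of the 13 auxiliary subunits of AMPA receptors, which set their gating and delivery, 5 had 1, led by Gsg1l (77.9, with 45.1 in replicate 1 and 32.3 in replicate 2), Shisa7 (60.7) and Shisa9 (40.3). Among 9 assembly and trafficking genes the count was 7, led by Nptx2 (111), which encodes a secreted pentraxin that clusters AMPA receptors, by the scaffold gene Grip1 (66.1) and by Nptxr (48.3). Of the 4 kainate receptor partners, 3 had a promoter summit: Neto2 (132), an auxiliary subunit, and C1ql2 (62.3) and C1ql3 (45.7), secreted proteins of the synaptic cleft. Of the 2 RNA editing enzyme genes, 1 had a promoter summit, Adar (163).

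The NMDA receptor subunit genes, which encode a further class of glutamate-gated channels, had a promoter summit at 4 of 7. Their strongest were Grin2a (351, with 201 in replicate 1 and 148 in replicate 2), Grin2b (262, with 123 in replicate 1 and 136 in replicate 2) and Grin3a (254, with 139 in replicate 1 and 117 in replicate 2). The other was Grin2c (119). Of the AMPA and kainate genes, Grik4, at 343, had a promoter site in the range of the 3 strongest, and the Grik2 site, at 119, was level with Grin2c. Grin2c was named after its value was seen. The difference was not tested.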

How the data were processed

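Peak lists on mm10, per the labels, were analysed: those called on each replicate, on both together, and the IDR optimal and conservative lists. Each deposited list gave the authors' signal value per peak, scale not stated, and −log10 of a q-value. For the aligner, the peak caller and the depth of reads: not given in the sources used here. No counting interval can therefore be given. A replicate's value at a site is that of its strongest overlapping peak. Summits (56462 on chromosomes 1 to 19, X and Y) were set against the GENCODE M21 basic genes, with TSSs at transcript 5′ ends. The motif was scanned in the GRCm38 sequence (RefSeq). All 9 members are named, with up to 3 related genes per role by promoter signal value and neighbours whose TSS lies within 1 kb of a flank site. Some items this rule selects are not reported here. Other single sites were chosen for description after their values were seen. Members and lists were chosen with earlier results of these data known. Alternatives were other lists, single replicates, windows and motif limits. Leaving out Grik4 or Grik5 was chosen after seeing the data. The tools were samtools 1.23.1, pysam 0.24.0, pandas 2.3.3, numpy 2.4.6 and matplotlib 3.10.9, under Python 3.11.15. Counting and motif search were tested on simulated data. A control experiment named in the labels was not used here.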

Additional observations from a re-analysis of the deposited data

Results flagged for a closer look

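Inside the bodies of the AMPA and kainate receptor genes, 15 further sites had a called peak in both replicates at a q-value of 0.05 but were in neither IDR list. They are listed because the counts above leave them out although both libraries show them. At that q-value the whole lists held 118068 peaks in replicate 1 and 123264 in replicate 2, against 56001 in the optimal list. No share over all genes is given here, so the count of 15 cannot be called high or low. Gria1 held 5 of them, Grik4 4, Grik3 and Grik5 2 each, and Gria3 and Grik2 1 each. They were weak, with at most 11.2 in replicate 1 and 10.3 in replicate 2, and 1 of the 15 had a motif match.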

How the results depend on the processing

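Of 49 recomputed values, 33 stayed within the set margin (counts within 1.5 times) and 16 moved. Keeping only sites at or above the list median left 2 members (against 16.9% of all protein-coding genes) and 10 related genes with a promoter summit, 18 body and 20 flank summits, a body density of 0.621 per 100 kb, a median signal value of 176 and a motif share of 89.5%. The motif share was 38.7% with at most 1 mismatch, 89.2% with at most 3 and 55.9% within 25 bp of the summit. A flank of 200 kb gave 88 flank summits, and a window of 5 kb gave 32 related genes and 9 of 9 members with a promoter summit, against 52.3% of all protein-coding genes. The list of replicate 1 alone gave 5 members with a promoter summit, against 38.3% of all protein-coding genes. That of replicate 2 gave 6, against 37.2%. These counts leave out part of the called peaks, by a limit not given here. At the Gria2 TSS, for example, both full lists held a peak, with q-values of 0.000297 and 0.000422. The median signal value was 29.7 for the list of replicate 1 and 24.6 for that of replicate 2. Taken from the strongest overlapping replicate peak it was 28.2 in replicate 1 and 24.6 in replicate 2, on another scale than the optimal list. In the conservative list, where Gria2 is added, 7 members had a promoter summit, against 35.5% of all protein-coding genes. Leaving out Grik4 gave a body density of 1.42 and leaving out Grik5 1.66. No paired analysis was possible because there was 1 group. Read depth is unknown, so a missing peak says only that none was called.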

Other observations

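The optimal and conservative lists differed at these genes in both directions. Of the 93 sites, 81 (87.1%) were also in the conservative list, against 87.4% of all optimal-list sites. Of the 12 that were not, 11 were at kainate genes, which hold 74 of the 93 sites. The conservative list held 14 sites that the optimal list lacks, with signal values between 17.2 and 27.6, among them the Gria2 promoter peak and a site in Grik2 188 bp downstream of a TSS.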
